A study of Tetranychus urticae with 4 samples.

Results

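Genes between 32 and 64 times as abundant in the dissected front body as in intact adult females of the spider mite Tetranychus urticae are described here. For each gene, CPM (counts scaled to a common library total) in the single proterosoma, or front-body, library were divided by the mean CPM of the whole-body libraries, with 0.1 CPM added to both. A gene was a member when it had at least 10 CPM in the front body and a ratio above 32 and at most 64. Of 18020 gene identifiers, 120 met the rule (0.666%). The rule used both body parts, so the enrichment itself is given as a description, with no test.

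The proterosoma library was made from the dissected proterosoma of 250 adult females and the 3 whole-body libraries from 100 intact adult females each, all of the laboratory strain London. The labels name no treatment, and every library is a pool of animals. They do not say whether the pools came from separate cultures, and the p-values below therefore cover the spread of these pools alone, part of which may be technical. Total counts were 19667380 in the front body and 23647775, 12356237 and 11630954 in whole-body replicates 1, 2 and 3. A count of 0 allows up to 3 counts, which is 0.153 CPM in the front body and 0.127, 0.243 and 0.258 CPM in whole-body replicates 1, 2 and 3, for counting error only.

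The proterosoma forms the anterior end of a mite and carries the stylets and palps, the eyes and the front legs, and it holds the paired salivary glands, the silk glands that open on the palps, and the fused central nervous system around the oesophagus. Spider mites feed by piercing single leaf cells and releasing saliva into them, and salivary proteins are therefore searched for among transcripts concentrated in this body part. Dissection does not separate these tissues. The table of gene names used here held 0 of the 18020 identifiers, and the files pair no identifier with a name. No member was therefore assigned to a salivary protein, to a protein family or to a tissue, and the label proterosoma could not be checked against marker genes.

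The members covered a wide range of abundance. Their level in the front body ran from 10.2 to 7121 CPM, with a median of 133 CPM, and their whole-body mean ran from 0.125 to 189.9 CPM, with a median of 3.16 CPM. Together they took 8.13% of all reads in the front body and 0.203% ± 0.0565 in whole bodies (SD, n = 3). The whole-body shares were 0.228%, 0.139% and 0.243% in replicates 1, 2 and 3, so replicate 2 was the lowest of the 3. In bulk RNA, fewer cells of a type and less RNA per cell cannot be told apart.

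A few genes made up most of this signal. There were 23 members with at least 1000 CPM in the front body, and they held 6.33% of its reads. The 45 members with 100 to under 1000 CPM held 1.61%, and the 52 members with 10 to under 100 CPM held 0.182%. Of the top 100 front-body genes 19 were members, the best placed at rank 12. None was among the 500 most abundant genes of the whole body, where the best placed member ranked 881.

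**Figure D1:**
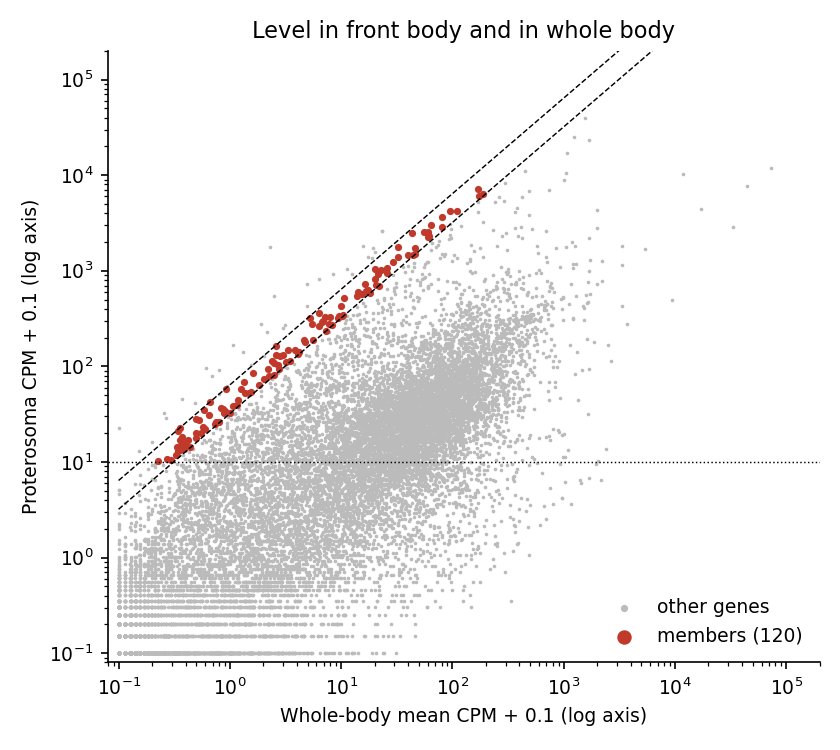
Proterosoma CPM against whole-body mean CPM for all genes, both with 0.1 CPM added and on log axes; dashed lines mark ratios of 32 and 64 and the dotted line 10 CPM in the front body. The 120 members, in red, fill the band between the dashed lines from 10.2 to 7121 CPM, and the band above it holds 35 genes.

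The ratios were crowded toward the lower end of the range. The lowest was 32.1, the median 39.2 and the highest 63.8, and the middle 50% of members lay between 35.4 and 44.7. At the lower threshold, tetur38g00060 had a ratio of 32.1 and tetur21g01590 one of 32.1, and the nearest genes left out, tetur53g00040 and tetur07g00150, had 31.95 and 31.78. At the upper threshold, tetur05g05820 and tetur14g03770 had ratios of 63.8 and 63.7, and the nearest genes left out, tetur04g09479 and tetur14g03970, had 64.2 and 64.5. In the proterosoma CPM, the members tetur08g03900 and tetur08g03890 stood at 10.2 and 10.3 CPM, and the genes just left out, tetur28g02230 and tetur10g03330, at 9.46 and 9.20 CPM. The last 4 genes were named for their place at the threshold after their values were seen.

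Reads pooled over the whole-body libraries give a second ratio, without the 0.1 CPM added, which can lie far from that of the rule where reads are few. For tetur05g05820 the pooled ratio was 108.5, against 63.8 by the rule. The exact 95% interval of the pooled ratio lay inside 32 to 64 for 53 members, reached below 32 for 45 and above 64 for 36, with 14 of them counted in both of the last groups. Whole-body reads were under 20 in all for 21 members, and 2 had a whole-body library with no read: tetur09g01020 in replicate 2 and tetur07g08036 in replicate 3, both named after their values were seen. The authors' deposited table of the same comparison listed all 120 members with a log2 fold above 0, from 4.56 to 6.89 with a median of 5.78. Errors in the authors' deposited table ran from 0.14 to 1.73 on the log2 scale. These folds are on another scaling than the CPM ratio, and the table's header does not name the numerator.

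The scaling sets which genes fall in the band. With TMM-scaled library sizes the ratios of the 120 members ran from 45.6 to 91.8, with a median of 56.3. All 120 then stayed above 32 and 32 of them passed 64. Over all genes tested, the log2 fold of proterosoma over whole body was lower with library size alone than with TMM, a median difference of -0.57.

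In the 3 most abundant members no whole-body library stood far apart. The gene tetur07g01280 had 7121 CPM in the front body, against 194, 161 and 152 CPM in whole-body replicates 1, 2 and 3. For tetur08g07240 the proterosoma level was 6311 CPM and the whole-body levels were 189.6, 169.6 and 211 CPM. The gene tetur17g02060 had 5998 CPM in the front body and 176, 163 and 186 CPM in the whole-body libraries. In each of the 3 the whole-body values lay close together, and the front-body value lay far above all whole-body values.

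Most of the next genes in rank behaved otherwise in whole-body replicate 2. The gene tetur03g10093 had 4257 CPM in the front body and 122, 17.2 and 146 CPM in whole-body replicates 1, 2 and 3, and its neighbour tetur03g10083 had 4243 CPM there, against 147, 22.1 and 161 CPM. Levels of tetur03g03680 were 3623 CPM in the front body and 100.7, 13.2 and 127 CPM in the whole-body libraries. For tetur03g03700 they were 2856 CPM in the front body and 103, 12.3 and 127 CPM in the whole-body libraries. In these 4 genes replicate 2 was several times lower than both other whole bodies, which lay close together.

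The ninth in rank, tetur03g03730, had 2573 CPM in the front body and 70.7, 11.2 and 84.8 CPM in whole bodies, again with replicate 2 far below. The seventh, tetur01g03220, had 3033 CPM in the front body and 71.8, 44.7 and 76.2 CPM in whole bodies, with replicate 2 the lowest by less than 2-fold. The tenth, tetur32g01880, was level, at 2552 CPM in the front body and 58.4, 58.8 and 62.9 CPM in whole bodies. The 10 genes together took 4.26% of all proterosoma reads, which is 52.4% of the proterosoma reads of the members.

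**Figure D2:**
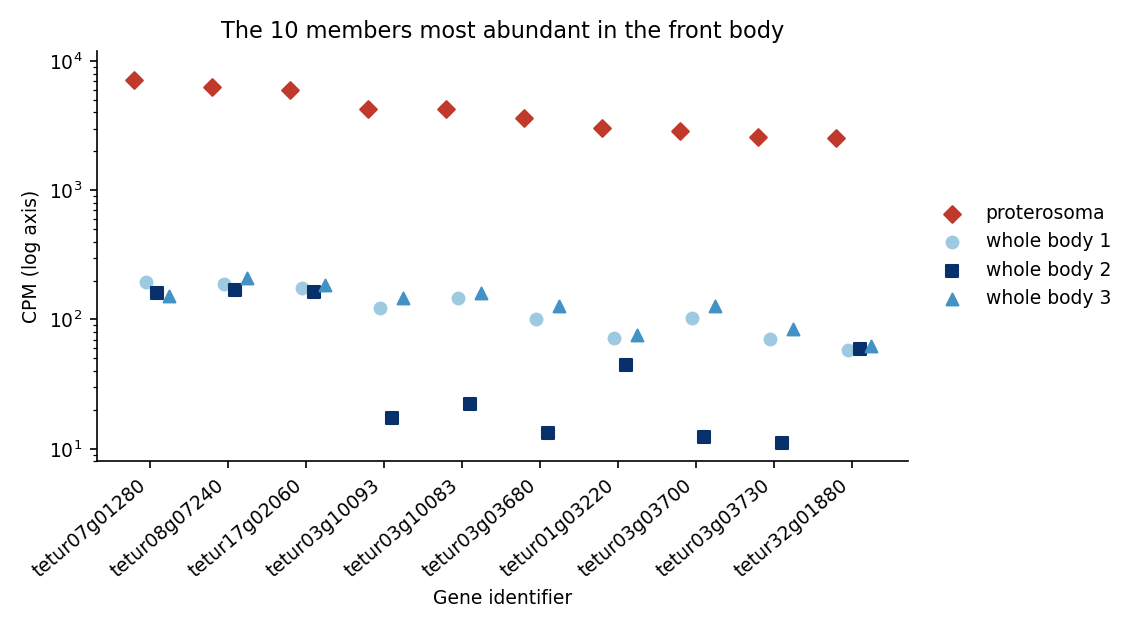
CPM of the 10 members most abundant in the front body, on a log axis, with 1 symbol per library. In 5 of the 10 genes whole-body replicate 2 lies between 11.2 and 22.1 CPM, at least 2-fold below both other whole-body libraries.

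The rule used the mean of the whole-body libraries, not their differences. Each whole-body library was set against the other whole-body libraries over all genes, without the proterosoma library (edgeR quasi-likelihood test, Benjamini-Hochberg adjusted p under 0.05). Of the 120 members 95 passed the expression filter, which asks mainly for about 0.809 CPM in at least 1 whole-body library and so lets a gene pass through the library where it is high. The other 25 did not pass, and 13 of the 95 passed through 1 library alone, 6 of them through replicate 2. In replicate 2, 22 of the 95 (23.2%) were called, against 1.54% of the 12228 genes tested. Of these, 17 were lower in replicate 2 (background 1.32%) and 5 higher (background 0.221%). Of the 6 that passed through replicate 2 alone, 1 was called. With the filter set on the sum of whole-body reads, at least 20, an alternative chosen after seeing the data, 21 of 99 members were called (21.2%), 15 lower and 6 higher, against 1.20% of all genes tested. With no filter beyond 1 count, 26 of all 120 were called (21.7%, against 2.36%).

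Counts of calls cannot be compared between the libraries, because the spread is estimated anew for each. Each fit has 1 residual degree of freedom and shares spread over all genes with a prior of 16.5 degrees of freedom for replicate 2, against 3.26 for replicate 1 and 5.03 for replicate 3. In the fits for replicates 1 and 3 the pair that gives the spread contains replicate 2. In replicate 1 the test called 0 of 95 members (background 0%), with 2 at an unadjusted p under 0.05, and the DESeq2 Wald test called 0. In replicate 3 it called 0 of 95 (background 0.00818%), with 9 at an unadjusted p under 0.05, which is 9.47% of the members against 8.95% of all genes tested. The DESeq2 Wald test called 0 there too. In replicate 2 the members at an unadjusted p under 0.05 numbered 42, or 44.2%, against 6.42% of all genes tested. Calls in none of these fits can separate a biological pool from its library, since 1 library stands alone on one side.

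Membership itself depends in part on replicate 2, because a low value there raises the ratio, so the test is not independent of the rule. With the ratio taken to replicates 1 and 3 alone, 96 genes met the rule and 87 of them were members. Of those 96, 76 were tested and 9 were called in replicate 2, 8 lower and 1 higher. That is 11.8%, against 23.2% with all 3 libraries and 1.54% of all genes tested. This alternative was chosen after seeing the data.

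The calls in replicate 2 differed in size among the abundant genes. They were small for tetur01g03220 and tetur17g01700, with 3033 and 2260 CPM in the front body and log2 differences of -0.717 and -0.476. The latter gene was named after its values were seen. Genes with larger differences follow. On scaffold 31, tetur31g01040 and tetur31g01060 had 2467 and 2335 CPM in the front body. The identifier between them, tetur31g01050, had no read in any library and was named after its values were seen. Whole-body levels of tetur31g01040 were 6.80 CPM in replicate 2, against 62.2 and 61.0 CPM in replicates 1 and 3 (log2 difference -3.17, standard error 0.16, edgeR adjusted p = 1.93e-09). For tetur31g01060 they were 11.5 CPM in replicate 2 and 77.3 and 96.9 CPM in replicates 1 and 3 (log2 difference -2.91, standard error 0.18, edgeR adjusted p = 7.89e-09). On other scaffolds, tetur01g13270 stood at 5.10 CPM in replicate 2 and at 34.8 and 37.1 CPM in replicates 1 and 3, a log2 difference of -2.80. The gene tetur22g00680 stood at 1.38 CPM in replicate 2 and at 13.9 and 16.4 CPM in replicates 1 and 3, a log2 difference of -3.43. In the proterosoma library these 2 genes had 1060.5 and 515 CPM.

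By their medians, members low in replicate 2 were abundant in the front body, and members high in replicate 2 were rarer. Among the 99 members with at least 20 whole-body reads, replicate 2 was at least 2-fold below both other whole bodies in 17 (17.2%), against 1.47% of the 12698 genes with as many reads. The median proterosoma level of these 17 genes was 1394 CPM, and they held 2.84% of the proterosoma reads. Their summed share of whole-body reads was 0.0124% in replicate 2 and 0.0842% and 0.101% in replicates 1 and 3. The ratio of proterosoma to whole body had a median of 201 against replicate 2, and of 34.8 and 29.1 against replicates 1 and 3. Without replicate 2, 9 of the 17 still met the rule and 8 did not.

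Replicate 2 was at least 2-fold above both other whole bodies in 8 members (8.08%), against 0.331% of genes with at least 20 whole-body reads. These were rarer genes, with a median proterosoma level of 89.1 CPM and a maximum of 294 CPM. Against replicate 2 the median ratio was 22.2, and against replicates 1 and 3 it was 91.2 and 119. Without replicate 2, 2 of the 8 still met the rule. By the same measure replicate 1 lay below both others in 0 of the 99 members (background 0.189%) and above them in 0 (background 0.244%). Replicate 3 lay below both others in 3 (background 1.03%) and above them in 2 (background 0.488%). These groups were defined after the values were seen.

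Among the 99 members with at least 20 whole-body reads, the 3 highest coefficients of variation belonged to genes that were high in replicate 2. The gene tetur22g01790 had 135 CPM in the front body, and 10.1 CPM in whole-body replicate 2 against 0.888 and 0.860 CPM in replicates 1 and 3. Its log2 difference in replicate 2 was 3.54 (standard error 0.32, edgeR adjusted p = 1.41e-06). For tetur19g03290 the levels were 69.0 CPM in the front body, 2.99 CPM in replicate 2, and 0.592 and 0.172 CPM in replicates 1 and 3. Its log2 difference in replicate 2 was 2.76, and its call there was lost with the DESeq2 Wald test. The gene tetur32g02100, with 35.1 CPM in the front body, had 1.21 CPM in replicate 2 and 0.169 and 0.0860 CPM in replicates 1 and 3, from 15, 4 and 1 reads. It was not called in replicate 2 (log2 difference 3.06), except with library size alone or with no filter. Both tetur19g03290 and tetur32g02100 passed the expression filter of about 0.809 CPM through replicate 2 alone, the library where they are high. These 3 genes were picked for their spread, so replicate 2 lying outside the other whole bodies is a description only. The whole-body reads of the last are few.

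**Figure D3:**
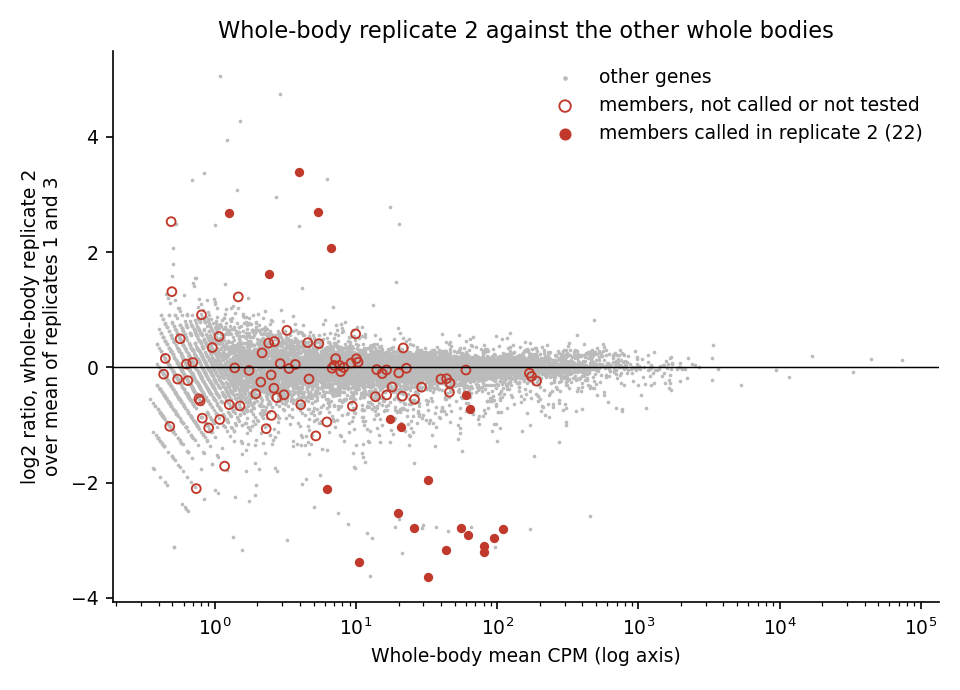
Log2 ratio of whole-body replicate 2 over the mean of replicates 1 and 3 (0.1 CPM added to both) against whole-body mean CPM on a log axis, for genes that had 20 or more whole-body reads. Filled red points are the 22 members called in replicate 2, 17 below and 5 above 0, and open points are members that were not called or not tested.

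At the other end, some of these 99 members had nearly equal whole-body levels. The lowest coefficient of variation, 1.97%, was that of tetur13g02960, with 277 CPM in the front body and 7.70, 7.77 and 7.48 CPM in whole-body replicates 1, 2 and 3. The gene tetur05g08680 followed at 2.31%, with 268 CPM in the front body and 8.373, 8.174 and 7.996 CPM in whole bodies. The third was tetur22g01910 at 3.09%, with 319 CPM in the front body and 9.09, 9.55 and 9.03 CPM in whole bodies. These 3 values are the lowest of 99 and rest on 87 to 215 reads per whole-body library. Counting alone gives spread at such read numbers, so they do not show that the genes hardly vary. The coefficient was under 10% for 20 of the 99 members with at least 20 whole-body reads and over 50% for 26, and 23 of those 26 were in the groups at least 2-fold apart in replicate 2.

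The median coefficient of variation among whole bodies was 24.0% for these 99 members and 8.95% for the 12698 genes with as many reads. It was 18.2% for the 272 genes of the band between 16 and 32 and 46.6% for the 28 genes above 64 that had as many reads. Lowly expressed genes vary more from counting alone, so the level matters. At a whole-body mean under 1 CPM the median was 42.7% for 17 members and 30.2% for 1152 genes, at 1 to under 3 CPM 24.9% for 21 members and 19.1% for 1690 genes, and at 3 to under 10 CPM 20.7% for 23 members and 12.4% for 1998 genes. At 10 to under 30 CPM the median was 17.5% for 19 members and 8.37% for 2442 genes, and at 30 to under 100 CPM it was 57.7% for 15 members and 6.21% for 3289 genes. The 4 members at 100 CPM or more had a median of 11.9%, against 5.58% for 2127 genes. Without replicate 2 the median over the 99 members was 10.9%, against 8.28% for all genes with as many reads. No test was made of these medians.

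**Figure D4:**
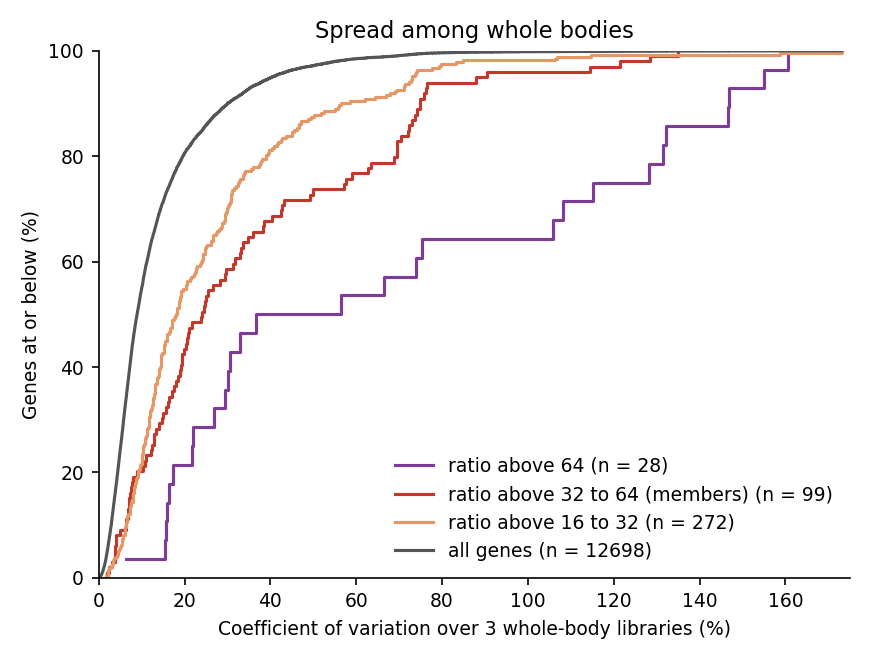
Cumulative share of genes by the coefficient of variation over the 3 whole-body libraries, for genes with at least 20 whole-body reads. The curve of the 99 members has its median at 24.0%, between those of the genes above 64 (46.6%) and of the band from 16 to 32 (18.2%), and all genes have theirs at 8.95%.

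Genes outside the band also stood apart in replicate 2. Of the 187 genes at least 2-fold below both other whole bodies, 46 (24.6%) had a ratio above 16 and at least 10 CPM in the front body, and of the 42 at least 2-fold above, 21 (50%). Replicate 2 was at least 4-fold below both other whole bodies in 53 genes (0.417% of those with at least 20 whole-body reads), of which 12 were members and 19 lay in the band between 16 and 32. With the single gene above 64, 60.4% had a ratio above 16 and at least 10 CPM in the front body. Replicate 2 was at least 4-fold above both others in 19 genes (0.15%), of which 4 were members, 4 lay in the band between 16 and 32 and 9 above 64. That is 89.5%, whereas such a ratio was held by 3.14% of all genes with at least 20 whole-body reads. The ratio contains replicate 2, so these shares are descriptions.

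Members also lay side by side. Identifiers carry a scaffold number and a serial number, and genes were ordered by both; the order was not checked against an annotation. The next identifier on the same scaffold was also a member for 12 of the 120 members (10%), whereas members make up 0.666% of all identifiers. With members chosen by TMM-scaled library sizes it was 8 of 206 (3.88%), whereas those make up 1.14% of all identifiers. The 12 formed 7 pairs, 1 run of 3 and 1 run of 4, holding 21 members. The count was not repeated without replicate 2, on which membership depends in part. Among the 10 most abundant members, those adjacent to another member all fell below a ratio of 32 without replicate 2. These were tetur03g03680 (31.7), tetur03g03700 (24.9), tetur03g10083 (27.5) and tetur03g10093 (31.7). Allowing gaps of up to 5 identifiers, a distance chosen after seeing the data, gave 13 groups with 34 members (28.3%). The members were spread over 40 scaffolds, and scaffold 3 held the most, 10 of its 945 identifiers. Reads shared between near-identical copies could not be told apart from separate expression, since no sequences were used here.

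The run of 4 lies on scaffold 3 and comprises tetur03g03670, tetur03g03680, tetur03g03690 and tetur03g03700, with tetur03g03730 following after 1 other identifier. The proterosoma level of tetur03g03670 was 824 CPM, and its whole-body levels were 23.9, 4.69 and 31.2 CPM in replicates 1, 2 and 3. For tetur03g03690 the proterosoma level was 1394 CPM, and the whole-body levels were 40.5, 11.1 and 46.0 CPM. All 5 members of this stretch were lower in replicate 2, with log2 differences from -1.95 for tetur03g03690 to -3.21 for tetur03g03700. Their level in replicate 2 was between 0.108 and 0.258 times the mean of replicates 1 and 3. These low values also raised the ratios that chose the genes. Without replicate 2 the ratios of tetur03g03680 and tetur03g03700 were 31.7 and 24.9, below the band, and that of tetur03g03730 was 33.1, inside it.

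The genes within and beside this stretch differed sharply. The identifier inside it, tetur03g03710, had 0.305 CPM in the front body and 2.45, 1.62 and 2.24 CPM in whole bodies, a ratio of 0.184. Next to the stretch, tetur03g03740 missed the rule with a ratio of 25.7 but showed the same order of libraries, with 1657 CPM in the front body and 79.5, 11.7 and 102 CPM in whole bodies. On the other side tetur03g03660 had 8.90 CPM in the front body and 24.5, 23.9 and 22.3 CPM in whole bodies, where the libraries lay close together. These 3 genes are no members and were named after their values were seen.

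**Figure D5:**
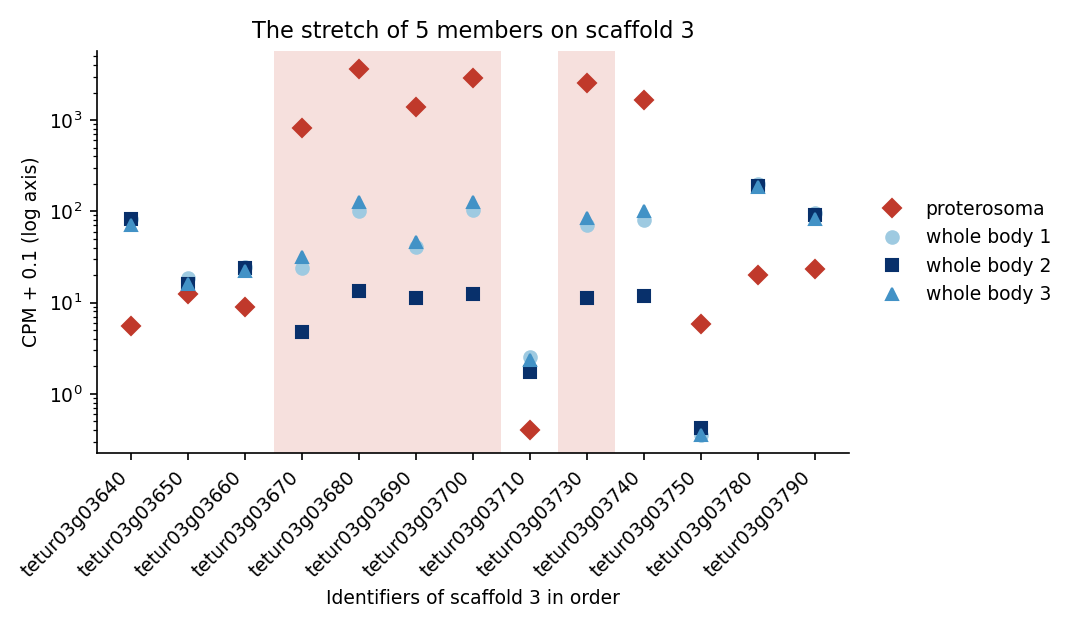
CPM with 0.1 added, on a log axis, for consecutive identifiers of scaffold 3, with 1 symbol per library; members are shaded. The 5 members have 824 to 3623 CPM in the front body and 4.69 to 13.2 CPM in whole-body replicate 2, and the unshaded gene tetur03g03740 beside them follows the same order.

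The run of 3 on scaffold 8 was of much lower abundance. The gene tetur08g03910 had 111 CPM in the front body and 3.13, 2.43 and 3.70 CPM in whole bodies. Its neighbours tetur08g03890 and tetur08g03900 had 10.3 and 10.2 CPM in the front body, from 9 and 6 whole-body reads in all. The first was not called in replicate 2, and its neighbours did not pass the filter. The ratios were 34.9, 35.0 and 45.7 for tetur08g03910, tetur08g03890 and tetur08g03900.

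Paired neighbours could be alike or differ widely in level; the rule itself places the ratio of both between 32 and 64. The pair on scaffold 3, tetur03g10083 and tetur03g10093, was alike in the front body, at 4243 and 4257 CPM. Both were lower in replicate 2 (log2 differences -2.79 and -2.95, standard errors 0.15 and 0.16). Without replicate 2 their ratios were 27.5 and 31.7, below the band, so their membership rests on that low level. In the pair tetur08g06160 and tetur08g06170 the proterosoma levels were 1048.6 and 93.9 CPM, and the whole-body means were 20.1 ± 0.776 and 2.11 ± 0.218 CPM (SD, n = 3). The pair tetur05g08670 and tetur05g08680 had 948 and 268 CPM in the front body and whole-body means of 25.9 ± 5.62 and 8.18 ± 0.189 CPM (SD, n = 3). For tetur24g01570 and tetur24g01580 the proterosoma levels were 25.9 and 234 CPM, and for tetur14g03760 and tetur14g03770 they were 35.4 and 58.1 CPM. All 8 genes of the last 4 pairs were tested, and none was called in replicate 2.

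Scaffold 14 held a looser gathering. From tetur14g03760 to tetur14g04020, 7 of 25 consecutive identifiers (28.0%) were members, with 22.9 to 613 CPM in the front body. Within the same stretch tetur14g03970 missed the rule with a ratio of 64.5, at 51.0 CPM in the front body. In the 7 members replicate 2 lay between 0.492 and 0.922 times the mean of replicates 1 and 3. Of the 7, 4 were tested and none of these was called in replicate 2. The stretch was picked after its values were seen.

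Genes next to members were not chosen by the rule and were compared between the front-body library and the whole bodies. Of the 205 other genes directly beside a member, 165 were tested, and 46 (27.9%) were higher in the front body by a factor of at least 4 (edgeR quasi-likelihood test over all 4 libraries, adjusted p under 0.05). The background was 20.7% of the 13278 genes tested. At 2, 3, 5, 10 and 20 identifiers from a member the shares were 18.5%, 20.9%, 21.7%, 21.5% and 22.1%, near the background. At least 4-fold lower were 17 of the 165 direct neighbours (10.3%), against 16.9% of all genes tested. The fit gives the lone front-body library the spread of the whole bodies, so a difference between body parts and one particular to that library cannot be told apart. The share at least 4-fold lower was below the background at 2, 3, 10 and 20 identifiers too, and above it at 5. No test was made of the difference between these shares.

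Most identifiers end in 0. Of the 120, 6 (5%) did not, against 4.92% of all identifiers. By scaffold, number 14 held 8 members among 394 identifiers (2.03%) and number 1 held 8 among 1585 (0.505%).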

How the data were processed

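RNA was sequenced from the dissected proterosoma and from intact females with strand-specific libraries, per the labels' protocols. The deposited table holds raw counts per gene made by the authors; the submitters' processing notes name STAR 2.5.0b, HTSeq 0.6.0 and DESeq2 1.6.3. The build, annotation and counting mode were not given in the sources used here, so near-identical or overlapping genes may share reads. The authors' deposited table gives, per the file headers, a mean normalised signal, log2 fold changes and errors, a test score and p-values; only the log2 columns were used. All columns of counts matched a sample by title (0 unused).

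Tests on counts used edgeR 4.0.16 with TMM scaling, its quasi-likelihood F test, filterByExpr and Benjamini-Hochberg adjustment, in R 4.3.3, with DESeq2 1.42.0 as an alternative; both comparisons were tested on simulated data. CPM used library totals. Intervals of pooled ratios were exact (binomial, 95%) and cover counting error only. Standard errors were the log2 difference over the root of its F value. The members, lists and tests were chosen with earlier results of these data known. Named members were the 10 most abundant, those at the ratio thresholds, those in runs or the 5 most abundant pairs, the 3 most and 3 least variable, and the 10 calls with the lowest adjusted p; others are marked where named. The alternatives were other scalings, filters, constants, minimums and gaps, and leaving out each whole-body library in turn.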

Additional observations from a re-analysis of the deposited data

How the results depend on the processing

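Of 61 values of main results under alternatives, 51 stayed within 1.5 times the main value or, for shares of reads, within 1 SD. They include the counts of 0 calls for replicates 1 and 3, from fits that called almost no gene and had little room to move. The 8 of 206 adjacent members also counted as within bounds, though their share was 3.88% against 10%. For single genes 143 values stayed within bounds, and 10 ratios were higher by more than 1 SD with TMM-scaled library sizes or DESeq2 size factors. Under alternatives 1 call was lost and 2 values became calls. The SD of a ratio was taken over the whole-body libraries, so the bound is wide where replicate 2 stands apart. For tetur03g10083 and tetur03g03700 the ratios were 38.5 and 35.4 and the SDs 94.5 and 118. Their ratios without replicate 2, 27.5 and 24.9, left the band but counted as within bounds. The number of members was 120. It became 73 or 62 with 0.5 or 1 CPM added to the ratio, and 206 or 212 with TMM-scaled library sizes or DESeq2 size factors, of which 88 and 86 were members by library size. Leaving out each whole-body library gave 96 to 129 genes, lowest without replicate 2. The median coefficient of variation of members was 24.0%, and 10.9% to 24.4% with each whole-body library left out, lowest without replicate 2. Members called in replicate 2 numbered 22, and 16 to 26 under 7 other scalings, filters and tools; with members chosen by the ratio to replicates 1 and 3 alone there were 9. The members followed by another member numbered 12 of 120, 8 of 206 with members by TMM-scaled library sizes, and 21 within 5 identifiers. That count was not repeated with a whole-body library left out. Of the 165 direct neighbours tested 46 were called at least 4-fold higher (27.9%, against 20.7% of all genes tested). The number was 30 of 131 with a mean count of at least 50 (22.9%, against 18.2%). It was 76 of 165 with any fold (46.1%, against 41.0%). Members at least 2-fold above in replicate 2 numbered 8, and 4 at 4-fold. The cause of these moves was not tested, apart from thresholds and filters that by construction count other genes. No paired analysis was possible because only whole bodies carry replicate numbers. The tests among whole bodies could not be repeated with a library left out, since no residual degree of freedom would remain. Depth limits the rarer members: 25 of 120 did not pass the filter among whole bodies.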
